A study of Mus musculus with 4 samples.

Results

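The regions described here were open in hair follicle stem cells of both genotypes, but had a lower accessibility peak in cells with the genotype for deletion of Nfib and Nfix than in the control cells. They were chosen from the peak lists. A wild-type (WT) peak was paired with the highest double-knockout (dKO) peak that it overlapped by at least 1 bp, and the pileup at each summit, the number of reads or fragments stacked there, was divided by the median pileup of its own list. The WT value over the dKO value was then divided by the median of this ratio over all 51449 pairs. A region was called weakened when this ratio was at least 1.75 and the WT pileup was at least at the WT median. Of 68192 WT and 63545 dKO peaks outside the mitochondrial genome, 31690 pairs were strong enough in WT to be considered, and 4519 of them (14.3%) were weakened. Because the pileups chose these regions, their ratios are given as a description, and nothing is tested on them.

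Accessible chromatin was read by ATAC-seq, whose transposase cuts open DNA and tags it with adapters. The cells came from back skin of male mice aged 70 days (P70), in the second resting phase (telogen) of the hair cycle. The WT mice were numbers 13 and 15, with the genotype NFIBfl/fl;NFIXfl/fl;R26-YFPfl/fl and no Cre. The dKO mice were numbers 14 and 16, with the same floxed alleles and Sox9-CreER, an inducible Cre expressed from Sox9. Sorted cells were DAPI-negative, Sca-1-negative, integrin α6-positive and CD34-positive in both genotypes, and dKO cells also had to be YFP-positive, so the gates differed by this marker. The sources used here do not say when or how Cre was induced. The labels tie 1 peak list to both mice of a genotype, so no value has a spread between mice, a difference between the lists cannot be told apart from a difference between mice, sorts or libraries, and no p-value was computed. In bulk cells, fewer cells with an open region and less opening per cell cannot be told apart.

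NFI proteins bind DNA as dimers to a palindrome with TTGGC at one side and GCCAA at the other, and also bind a single arm of it. In the hair follicle, stem cells rest in the bulge between hair cycles, and NFIB and NFIX are expressed there together with factors such as SOX9, LHX2 and TCF7L1 that keep the bulge identity. Distal open regions in these cells often act as enhancers, while open regions at gene starts are often shared by many cell types.

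The WT list held the higher pileups, with a median of 73 against 38 in dKO, and its lowest local background was 5.29 against 2.73. A ratio of 1 therefore corresponded to a WT pileup 2.12 times that in dKO, and the threshold to one 3.71 times as high. All 12 genes listed as markers of these stem cells, among them Cd34, Itga6, Krt15 and Lhx2, had at least 1 strong pair nearby. Of 28 markers of other cells, 13 also had a strong pair. These were Mitf, Dct and Pmel of melanocytes (17 strong pairs, 15 of them at Mitf), Pdgfra, Col1a1 and Col1a2 of fibroblasts (7), Pecam1, Cdh5 and Tek of endothelium (9), Ptprc of immune cells (1) and Krt10, Lor and Ivl of the outer epidermis (3). The highest pileup among them was 668 in WT and 327 in dKO, at Pmel, against 631 in WT among the stem cell markers. Of these pairs, 4 of 17 at melanocyte, 1 of 7 at fibroblast and 3 of 9 at endothelial markers were weakened, and none at the others. At the stem cell markers 13 of 107 strong pairs were weakened, against 14.3% of all strong pairs. Another 8 of the 28 had no shared pair: Tyr, Lum, Dcn, Tie1, Cd3e, Itgam, Cd74 and Ly6a, which encodes Sca-1. The part of other cells in the weakened regions was not tested.

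Weakened regions had WT pileups from 73 to 4295, with a median of 174, and dKO pileups from 9 to 888, with a median of 31. Their normalised ratio had a median of 2.31, quartiles of 1.97 and 3.02, and a maximum of 16.5. It reached 2 in 3241 regions, 3 in 1140, 5 in 274 and 10 in 20. So the loss was moderate at most of these regions and large at few. The dKO peak lay below the dKO median in 60.3% of them, against 16.3% of all strong pairs. At the edge of the rule, a region inside Map4k4 with 501 in WT and 135 in dKO had a ratio just over the threshold, and a region inside Src with 141 and 38 lay just under it at 1.7499. A region 35.1 kb from Xbp1 with 73 and 19 was just inside the WT minimum, and a region inside Kirrel with 72 and 19 was just outside it.

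**Figure D1:**
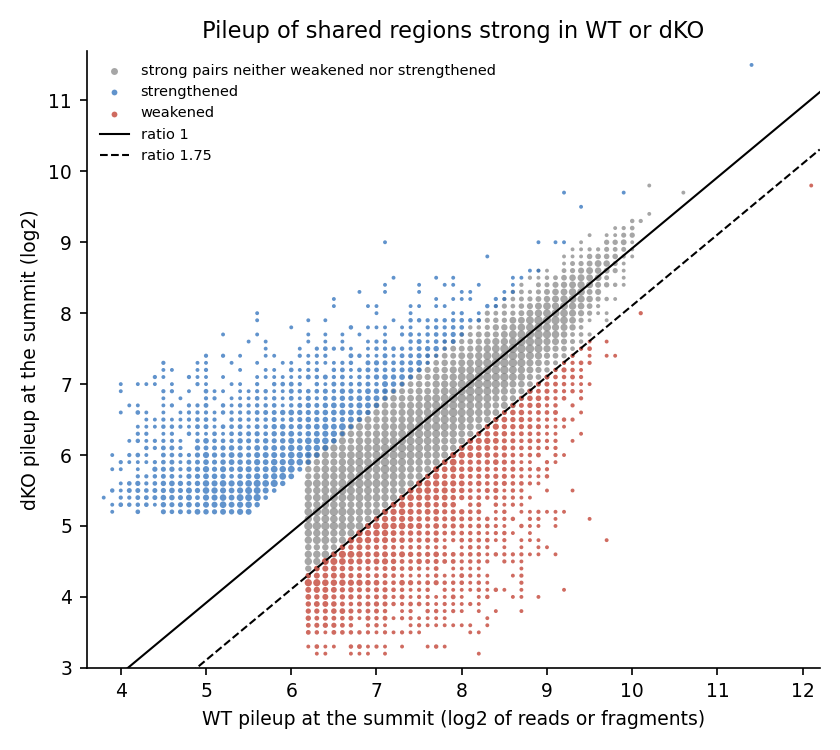
Summit pileup in WT (horizontal) and dKO (vertical), both as log2 of the deposited count, for strong shared pairs and strengthened regions. Each point is a bin of 0.1 on both axes and its area grows with the number of pairs in the bin; the solid line is a ratio of 1 and the dashed line the threshold of 1.75, under which the 4519 weakened regions lie by construction.

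The opposite group, pairs at or over the dKO median whose ratio was at most the inverse of the threshold, is called strengthened. It held 4280 of 30580 pairs (14%), and 1319 of the 31690 strong pairs (4.16%) were in it. The remaining 25852 strong pairs were neither weakened nor strengthened and are called unchanged here as a name only. The median ratio of all strong pairs was 1.10, so the rule cut them slightly off centre.

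A ratio of pileups does not remove the local background, which the deposited fold enrichment divides out. Local background was also lower in dKO at the weakened regions. It is computed from the fold and from the pileup that chose these regions, so it is a description and not a separate observation. In units of the lowest value of its list, the median was 3.57 in WT and 1.39 in dKO at weakened regions, against 4.35 and 3.18 over all strong pairs. The dKO peak stood at the lowest background of its list in 31.1% of weakened regions and in 7.76% of all strong pairs. With fold enrichment in place of pileup, 2947 of 30889 strong pairs (9.54%) passed the same rule. They held 1410 of the 4519 weakened regions (31.2% of these, and 47.8% of the 2947), while 91.3% of the weakened regions had a normalised fold ratio over 1, against 51.5% of all strong pairs. The pileup that the rule used is also the numerator of the fold, so the 2 measures are not independent. Over the weakened regions the median ratio was 1.48 for fold and 2.31 for pileup. The rule set a minimum for the pileup ratio and none for the fold ratio, so these medians do not compare the 2 losses. Fold values are given below for neighbours, for the genes with the most weakened regions, and for the gene lists whose share moved beyond its interval or changed side against all pairs.

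Weakened regions were scarce at the ends of genes and common between genes. Each pair was placed by the midpoint of its WT peak. Counting as a gene end the 1 kb around the start or the finish of a protein-coding gene, 196 of them (4.34%, Wilson 95% interval 3.78 to 4.97) were there, against 31.3% of all strong pairs (30.8 to 31.8). A further 2098 (46.4%) lay inside genes and 2225 (49.2%) between genes, against 36.7% and 31.9% of all strong pairs. Such intervals hold counting error alone and take each region as independent. Position was not used by the rule, and the share at gene ends was 4.14% with fold enrichment in place of pileup. Strengthened regions were also scarce there, with 9.53% at gene ends (8.69 to 10.4), against 32.5% of all pairs strong in dKO. So the gap was shared by both directions and was wider for weakened regions. Between genes lay 48.1% of the strengthened regions, against 31.6% of pairs strong in dKO, so they were common between genes as well. At gene ends 80% of the ratios were in a narrow band, from 0.762 to 1.37, while between genes the same band ran from 0.680 to 2.46.

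Seen from the place, 1.97% of 9926 strong pairs at gene ends were weakened, 18.0% of 11641 inside genes and 22.0% of 10123 between genes. Of pairs strong in dKO, 4.11% at gene ends, 16.5% inside genes and 21.3% between genes were strengthened, so the order of places was the same. The strongest pairs at gene ends had the lowest weakened share. Among gene-end pairs with a WT pileup of 1 to 1.5 times the median, 4.88% were weakened, and among those at 5 times or more 0.381% were, that is 14 of 3674. Between genes the order ran the other way up to the fourth class, from 16.3% of the weakest class to 27.2% at 3 to 5 times the median, with 23.3% at 5 times or more. In every class of strength the share at gene ends was below that inside and between genes. Isolation from genes went with a higher share: 28.0% of 2163 strong pairs more than 100 kb from any protein-coding gene were weakened, and these 605 regions made up 13.4% of the weakened against 6.83% of all strong pairs.

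**Figure D2:**
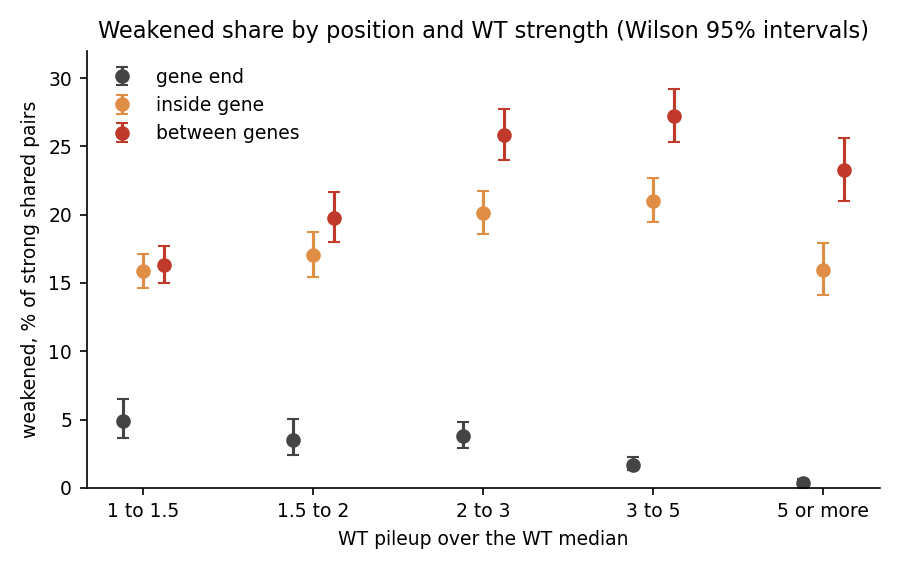
Percent of strong shared pairs that were weakened (vertical), by WT pileup in multiples of the WT median (horizontal) and by position; points are shares and bars Wilson 95% intervals of counting error. The share at gene ends falls from 4.88% to 0.381% with strength, while that between genes is between 16.3% and 27.2%.

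Chromosomes differed less than positions. The weakened share of strong pairs was lowest on chromosome X, with 64 of 665 (9.62%, 7.61 to 12.1), and highest on chromosome 12, with 225 of 1260 (17.9%, 15.8 to 20.1). The other chromosomes were between 11.5% and 16.3%.

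Weakened peaks were also narrower in dKO. Their median width was 1018 bp in WT and 624 bp in dKO, and 95.1% of them were narrower in dKO, against 1127 and 975 bp and 76.2% for all strong pairs. Width is not independent of the pileup that the rule used and is given as a description. The narrowing was deepest for the weakest WT class, where the median of dKO over WT width was 0.520, and least for the strongest, where it was 0.811. The summits stayed close. They were a median of 50 bp apart (quartiles 7 and 101), against 37 bp (3 and 84) for all strong pairs, and 3.58% of the weakened WT peaks overlapped more than 1 dKO peak (against 2.79% of all strong pairs, and 1.83% of the regions weakened by fold enrichment).

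By pileup ratio, the region with the largest loss was chr13:32591920-32594023 (mm10), 108 kb from Mylk4, which encodes a myosin light chain kinase. It had a pileup of 595 in WT and 17 in dKO, a ratio of 16.5 with an exact 95% interval of 10.2 to 28.5 from the counts. A second region of the same stretch, chr13:32530686-32531665, had 286 and 11, a ratio of 12.26. Both lay more than 100 kb from any protein-coding gene. Close to the growth factor gene Igf2, at 20.4 kb, chr7:142629603-142631210 had 285 in WT and 9 in dKO, the lowest dKO value found among the weakened regions (ratio 14.9). Inside Acsbg1, an acyl-CoA synthetase gene, chr9:54635326-54636331 had 848 and 27 (ratio 14.8). Of the 12 regions with the highest ratio, it alone was also among the 8 with the highest WT pileup. Inside Slit3, which encodes a guidance ligand of ROBO receptors, chr11:35686743-35687911 had 489 and 16 (ratio 14.4), and inside the kinase gene Ulk4, chr9:121107195-121108437 had 413 and 14 (ratio 13.9). The normalised fold ratio of these 6 regions was between 2.13 and 3.77, so each also passed the threshold by fold enrichment.

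The tallest weakened peaks were mostly other regions, with smaller ratios. The tallest, chr17:39843116-39848667, had 4295 in WT and 888 in dKO (ratio 2.28) and overlapped the ribosomal RNA pseudogene Rn18s-rs5 and the noncoding gene AY036118. Repeated ribosomal sequence makes its pileup uncertain, and its deposited fold enrichment was 3.06 in WT and 3.18 in dKO. An example at the end of Lars2, the mitochondrial leucyl-tRNA synthetase gene, had 1069 and 251, and its normalised fold ratio was 1.0003. Of the 8 tallest regions, those inside Immp2l (822 and 166) and Abca4 (812 and 197) had fold ratios of 0.919 and 0.748. So several of the tallest regions were lower in dKO by pileup and not by fold enrichment.

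Promoters were rare among the weakened regions, but they are the regions for which sequence was at hand. RefSeq promoter windows of GRCm38.p6, from 250 bases before to 50 bases after a gene start, numbered 32815 for 27025 genes, and 212 of them lay under 194 weakened regions. Those 194 were 4.29% of the weakened regions, against 29.8% of strong pairs over a window. The stretches below show the 250 bases before the start for the 5 protein-coding genes with the highest ratio that held TTGGCA there, and for Ctnnbip1, and were chosen after their values were seen. They are printed 5′ to 3′ on the strand of the gene, and capitals mark TTGGCA or its reverse complement TGCCAA.
Sardh: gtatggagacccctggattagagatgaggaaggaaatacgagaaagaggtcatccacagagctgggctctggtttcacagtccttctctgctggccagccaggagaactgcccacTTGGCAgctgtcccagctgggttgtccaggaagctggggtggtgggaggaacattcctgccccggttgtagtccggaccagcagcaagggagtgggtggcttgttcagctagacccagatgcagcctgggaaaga
Btbd11: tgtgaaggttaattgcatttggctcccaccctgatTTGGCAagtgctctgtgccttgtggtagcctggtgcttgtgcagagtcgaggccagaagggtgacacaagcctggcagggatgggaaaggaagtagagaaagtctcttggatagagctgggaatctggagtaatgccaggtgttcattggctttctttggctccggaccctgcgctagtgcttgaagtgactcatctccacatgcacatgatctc
Fcgbp: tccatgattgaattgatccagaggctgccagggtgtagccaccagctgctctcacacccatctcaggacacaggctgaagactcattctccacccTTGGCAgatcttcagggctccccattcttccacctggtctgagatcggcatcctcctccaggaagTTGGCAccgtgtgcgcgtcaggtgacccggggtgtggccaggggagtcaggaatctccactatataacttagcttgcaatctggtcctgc
Stfa3: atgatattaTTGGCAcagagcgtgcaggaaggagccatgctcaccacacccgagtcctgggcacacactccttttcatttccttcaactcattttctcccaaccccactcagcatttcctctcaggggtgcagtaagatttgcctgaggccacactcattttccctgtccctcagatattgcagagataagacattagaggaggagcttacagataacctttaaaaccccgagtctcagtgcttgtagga
Gpr146: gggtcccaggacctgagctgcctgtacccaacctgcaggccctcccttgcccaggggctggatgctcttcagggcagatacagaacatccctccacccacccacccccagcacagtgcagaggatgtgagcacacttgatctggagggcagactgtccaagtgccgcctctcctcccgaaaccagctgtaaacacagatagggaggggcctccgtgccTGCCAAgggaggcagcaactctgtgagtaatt
Ctnnbip1: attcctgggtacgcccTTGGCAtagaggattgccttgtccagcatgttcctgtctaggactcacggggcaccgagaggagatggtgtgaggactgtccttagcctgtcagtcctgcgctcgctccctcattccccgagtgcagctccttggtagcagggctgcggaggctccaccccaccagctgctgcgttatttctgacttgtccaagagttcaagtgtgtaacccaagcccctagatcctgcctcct

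Sardh, the sarcosine dehydrogenase gene, starts after chr2:27247304-27247553 on the minus strand, and the peak over it had 351 in WT and 17 in dKO (ratio 9.74, 5.99 to 16.9). Btbd11, which encodes an ankyrin and BTB domain protein, starts after chr10:85598161-85598410 on the plus strand, and its peak had 204 and 10 (ratio 9.62, 5.13 to 20.4). Both promoters kept only a low peak in dKO. The peak at Fcgbp, which encodes a mucin-like secreted protein and has TTGGCA at a pair of places, had 326 and 32 (chr7:28070986-28071235, plus strand, ratio 4.80). At Stfa3, a cysteine protease inhibitor gene with close relatives beside it that could share reads, the values were 352 and 35 (chr16:36455393-36455642, minus strand, ratio 4.74). The receptor gene Gpr146 carries the match on the opposite strand, and its peak had 166 and 18 (chr5:139389654-139389903, plus strand, ratio 4.35). These losses were smaller than at Sardh and Btbd11. Ctnnbip1 encodes a protein that blocks the binding of beta-catenin to TCF factors, and its peak had 310 and 43 (chr4:149544867-149545116, plus strand, ratio 3.40, 2.47 to 4.79).

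TTGGCA, searched like all motifs on both strands and over the whole 300 base window, was in 54 of the 212 windows under weakened regions (25.5%, 20.1 to 31.7). These windows lay under 194 regions, and windows of nearby starts can share a match, while the intervals take each window as independent. It was in 12.32% of 495 windows under strengthened regions, in 10.1% of 12224 windows under other strong pairs and in 14.1% of all windows. The shorter TTGGC, which every TTGGCA contains, did not set them apart, with 52.8% against 46.7% of all windows. The full palindrome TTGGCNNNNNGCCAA was in 0 of the 212 windows and in 12 of all windows, too few to compare. Other motifs differed as well. The AP-1 motif TGANTCA was in 16.04% of the windows under weakened regions, against 6.87% under strengthened regions and 7.81% of all windows. The GC box GGGCGG was in 34.9%, against 68.1% under other strong pairs and 35.6% of all windows, and the ETS core CCGGAA in 12.26%, against 29.5% and 14.9%. The LEF/TCF core CTTTGA was in 13.7% (9.70 to 18.96), an interval that holds both the 10.96% under other strong pairs and the 16% of all windows. A match is a description of the letters and not a bound site.

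**Figure D3:**
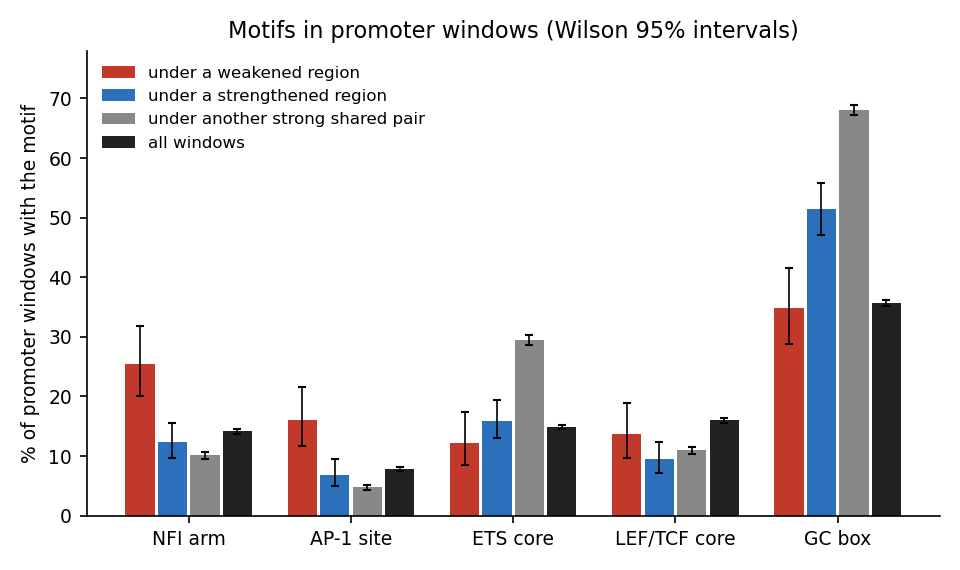
Percent of 300 base promoter windows with each motif (vertical), by the class of the strong shared pair over the window; bars are shares and whiskers Wilson 95% intervals of counting error. TTGGCA (labelled NFI arm) stands at 25.5% under weakened regions and 12.32% under strengthened regions, and the AP-1 motif at 16.04% and 6.87%.

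Base composition moved with these shares. The median GC content was 53.2% for the windows under weakened regions, 57.3% under strengthened regions and 62.0% under other strong pairs. Within windows under 50% GC, TTGGCA was in 32.8% of the 61 under weakened regions (22.3 to 45.3) and in 17.9% of the 117 under strengthened regions. From 50% to 60% GC these shares were 27.6% of 98 and 15.4% of 169, and at 60% or more 13.2% of 53 and 6.70% of 209. So the order was the same in the 3 classes, while the weakened and strengthened intervals overlapped. Under other strong pairs TTGGCA was in 13.9% (11.9 to 16.1) under 50% GC and 12.9% (11.8 to 13.97) from 50% to 60%. The weakened intervals, 22.3 to 45.3 and 19.7 to 37.1, lay above these. At 60% or more they overlapped, at 13.2% against 8.14%. AP-1 intervals behaved likewise, with weakened shares of 22.95%, 16.3% and 7.55% against 9.01%, 6.5% and 3.22% under other strong pairs. Among windows under strong pairs, those with TTGGCA were weakened in 4.09% of 1321 cases and those without in 1.39% of 11375. Their median ratios were 1.02 and 1.03, so the middle of the ratios did not move with the motif. The strengthened shares were 4.52% of 1351 with it and 3.75% of 11580 without. With the AP-1 motif the weakened share was 5.37% of 633, against 1.48% of 12063 without it.

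Weakened regions lay close to other weakened regions. Of the 3301 strong pairs within 10 kb of a weakened region and with a dKO peak of their own, 935 were weakened (28.3%, 26.8 to 29.9) and 1.42% strengthened. Near unchanged pairs 12.8% of 14214 neighbours were weakened, and near strengthened pairs 7.01% of 685, while 14.6% of these 685 were strengthened. Away from gene ends the weakened shares were 33.1%, 16.1% and 7.60%. There the share came down with distance, from 40.3% of links at 2 to 5 kb to 23.6% at 50 to 100 kb and 21.9% at 500 to 1000 kb, where it was near the 20.4% of links from unchanged pairs. This clustering was not seen with fold enrichment. By fold, 10.4% of the neighbours of weakened regions were weakened (8.59 to 12.4), against 9.03% near unchanged pairs and 9.54% of all strong pairs. Fold divides by the local background, which was lower in dKO at weakened regions as given above. A loss shared with the surroundings can thereby be divided out, so the fold values do not decide whether neighbours lost pileup together. The part of the background in the clustering was not tested.

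**Figure D4:**
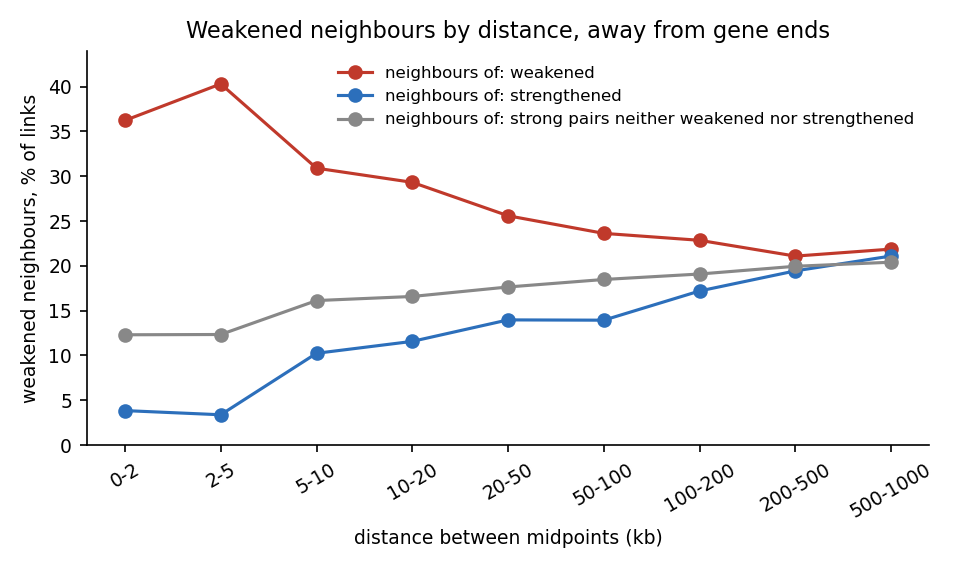
Percent of links to a neighbouring strong pair that was weakened (vertical), by distance between midpoints in kb (horizontal), for anchors and neighbours away from gene ends; lines connect the classes of the anchor. Links from weakened regions start at 36.2% within 2 kb, peak at 40.3% and end at 21.9%, where the 3 lines come together.

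Peaks found in the WT list only were also common nearby. Within 10 kb of weakened regions there were 1704 WT-only and 682 dKO-only peaks, so 71.4% were WT-only (69.6 to 73.2), against 67.1% around all strong pairs, 46.9% around strengthened regions and 59.8% of single-list peaks in all. By fold enrichment the share around weakened regions was 62.8% (60.1 to 65.4), against 64.9%, 53.8% and 59.8%. So by fold it was no longer higher than around all strong pairs, and it was still higher than around strengthened regions.

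Some megabases held many weakened regions. Of 1240 windows of 1 Mb with at least 10 strong pairs, 42 had 40% or more of them weakened and 158 had none, with a median of 12.9%. The highest share was on chromosome 15 from 56 to 57 Mb, where 10 of 16 were weakened, 8 of them nearest to Has2, which encodes a hyaluronan synthase. On chromosome 13 from 97 to 98 Mb 15 of 31 were weakened, 10 of them nearest to Enc1, an actin-binding protein gene. From 90 to 91 Mb on chromosome 1 it was 10 of 20, with 6 nearest to the chemokine receptor gene Ackr3. The nearest gene, here at any distance, need not be the gene a region acts on.

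Each strong pair was assigned to the nearest protein-coding gene within 100 kb. Of 29527 such pairs 13.3% were weakened and 3.78% strengthened, and 2527 of 12563 genes had at least 1 weakened region. Long genes have more pairs, so counts are given with the number of strong pairs. The DNA repair gene Rad51b had the most, with 15 of 38 weakened (chr12:79297282-79848260). Trabd2b followed with 11 of 23 (chr4:114406682-114615098). It encodes TIKI2, a membrane protease that inactivates WNT ligands, and the region chr4:114611283-114612545 inside it had 706 in WT and 34 in dKO (ratio 9.79). Hivep3, a zinc finger factor gene, had 10 of 15 weakened and none strengthened. These genes were chosen by their weakened counts, and strengthened pairs are counted per gene only among pairs strong in WT. The counts therefore do not compare the directions. Hivep3 also had 18 WT-only peaks and 1 dKO-only peak, where 59.8% of all single-list peaks were WT-only. Its strongest loss was at chr4:119997163-119999095, with 332 and 24 (ratio 6.52). The other genes of this group were Arhgap26 with 10 of 18 and the coactivator gene Zmiz1 with 9 of 24. Sdk2, a synaptic adhesion gene, had 7 of 9. The same count of 7 was found for Ablim1 of 16, Asap1 of 16, Sipa1l3 of 13, Nectin1 of 17, Prkce of 15 and Nfib, described below. In all 10 genes had 7 weakened regions, and the 7 with the highest summed log2 ratio of these regions are named.

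By fold enrichment these counts were much lower, for genes that were chosen by their counts by pileup. Rad51b, Trabd2b, Hivep3, Asap1 and Sipa1l3 had 3 each, Zmiz1, Sdk2, Ablim1 and Nfib 2 each, Arhgap26 and Prkce 1 each and Nectin1 0. Of the 15 regions of Rad51b 14 had a fold ratio over 1, of the 10 of Hivep3 all 10, but of the 10 of Arhgap26 only 5, and of the 6 of the zinc finger gene Bnc1 only 2.

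The NFI genes differed among themselves. Nfib, a deleted gene (chr4:82290173-82506751), had 7 of 34 strong pairs weakened and none strengthened, with its largest loss at chr4:82228682-82229542, from 118 to 15 (ratio 3.71). The median ratio of its pairs was 1.19. It had 2 weakened regions by fold enrichment, and 3 by pileup when a region had to lie within 20 kb of its gene. Nfix, the other deleted gene, had 11 strong pairs and none weakened, with ratios from 1.02 to 1.72. Nfia and Nfic were not deleted and had 1 of 9 and 0 of 5 weakened, with median ratios of 0.890 and 1.10. The 4 genes together had 8 of 59 weakened (13.6%), and 8.70% by fold enrichment, against 13.3% and 9.06% of all pairs with a gene. Which exons Cre removes was not analysed here, so these values do not check the deletion. Sox9, whose regulatory sequence drives the Cre, had 2 of 5 weakened, with 142 against 17 (ratio 3.94) at chr11:112856338-112857474 and 242 against 42 (ratio 2.72) at chr11:112767035-112768402.

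**Figure D5:**
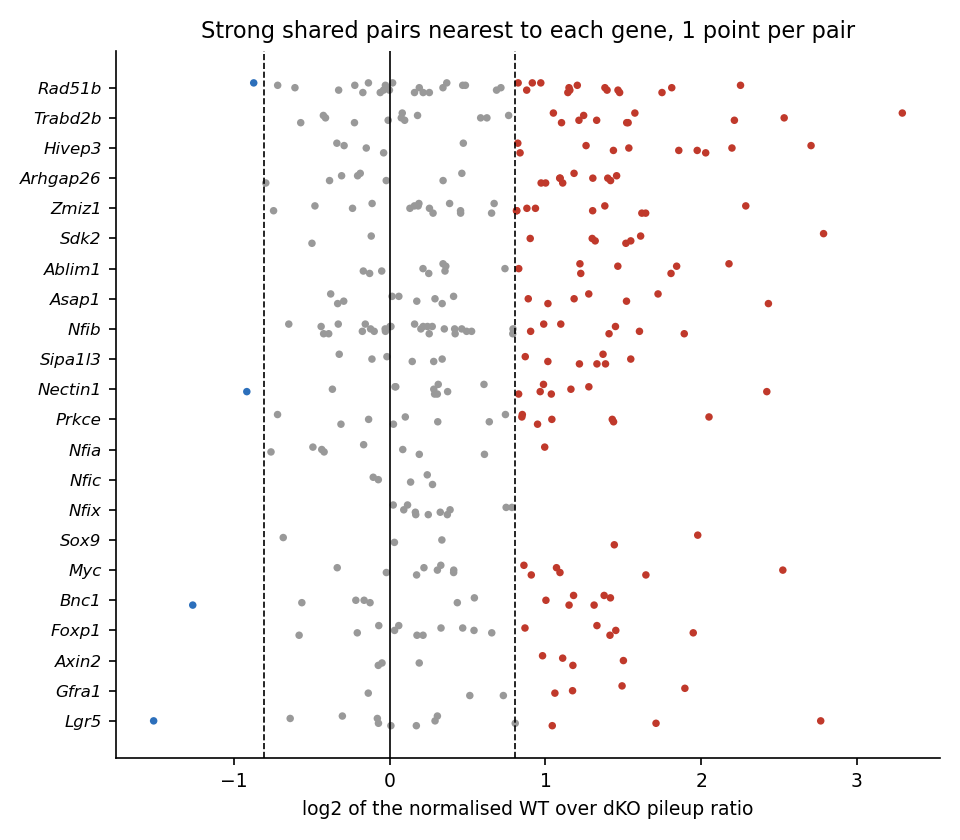
Log2 of the normalised WT over dKO pileup ratio (horizontal) for each strong shared pair assigned to a gene (rows); red points are weakened, blue strengthened and grey neither, the solid line is a ratio of 1 and the dashed lines are the thresholds. The 12 genes at the top have the most weakened regions, 7 or more each, with 3 further genes tied at 7 not drawn, and Nfix and Nfic have none.

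The other genes are described by lists of known function. Pairs at gene ends, which were rarely weakened, made up 33.6% of all pairs with a gene and a lower share in 21 of the 22 lists. The weakened share is therefore also given away from gene ends, where it was 19.0% of all pairs with a gene. By all pairs 15 lists stood above the background, and away from gene ends 8 did, judged by the share alone. The Wilson interval of many lists held the background, such as 12.6 to 27.0 for planar polarity. By all pairs it lay above for the bulge region factor (21.3 to 32.9), secreted WNT inhibitor (19.2 to 42.0), matrix, guidance and housekeeping lists. It lay just under for the p63 list. Away from gene ends the matrix (17.4 to 34.0) and guidance (16.6 to 29.8) intervals held the background too. Among factors of the bulge region (E proteins, RUNX, FOX and others) 59 of 221 strong pairs were weakened (26.7%), against the 13.3% of all pairs with a gene, and 22 of its 30 genes with a strong pair had at least 1. Away from gene ends its share was 29.6%. Besides Hivep3 these included Bnc1, with 6 of 13, and its relative Bnc2, with 5 of 27. The weakened regions assigned to Bnc1 all lay between genes. The tallest of them, chr7:82046636-82048012, was 55.0 kb from Bnc1 and had 636 in WT and 135 in dKO (ratio 2.22). Its normalised fold ratio was 0.847. A region inside Bnc1, chr7:81971390-81972225, was strengthened, with 105 and 119 (ratio 0.416). By fold the list stood at 13.2%, against 9.06% of all pairs with a gene.

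Secreted WNT inhibitors had the highest share of the signalling lists, 17 of 58 (29.3%), but 11 of the 17 were Trabd2b, and away from gene ends it had 34%. Dkk3, a member of the Dickkopf family, had 3 of 9, with 209 and 24 at chr7:112127855-112128714 (ratio 4.11). Apcdd1, an inhibitor at the WNT receptor, had 1 region with a ratio of 4.83. The wider WNT list had 23 of 147 weakened (15.6%), and 18.5% away from gene ends, just under the background there, with 4 of 7 at Axin2, a feedback inhibitor and target of the pathway, while its fold share of 7.34% was under the 9.06% of all pairs. At Lgr6, a receptor for R-spondins, a region with 265 and 31 (ratio 4.03) and another with 237 and 33 (ratio 3.39) were weakened. The fold share of the secreted inhibitors was 15.6%.

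Planar polarity and noncanonical WNT genes had 21 of 112 weakened (18.8%), with 6 of 18 at the formin gene Daam1, 4 of 9 at the WNT5A receptor gene Ror1 and 4 of 11 at Celsr1, a cadherin of planar polarity. At Ror1, chr4:100174685-100176888 had 301 and 40 (ratio 3.55) and chr4:100181536-100182515 had 308 and 41 (ratio 3.54). Their normalised fold ratios were 1.43 and 1.12, and a further peak at chr4:100187690-100188842 had 411 and 84 (ratio 2.31). By fold the list was at 4.21%, under the 9.06% of all pairs, so its side against the background turned. Away from gene ends it had 22.1%.

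Guidance and neurotrophin genes had 35 of 175 weakened (20%). Gfra1, the receptor gene for GDNF, had 4 of 7 and Slit3 4 of 10. Matrix genes had 25 of 123 (20.3%), among them 3 of 5 at the basement membrane collagen gene Col4a1, where chr8:11174026-11175454 went from 539 to 67 (ratio 3.79), and 2 of 8 at Col4a6, with 213 and 14 (ratio 7.17). The fold shares of these lists were 12.8% and 20%, both above all pairs with a gene, and their shares away from gene ends were 22.5% and 24.8%.

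Lists of bulge identity and of quiescence did not stand above the background once gene ends were set aside. Bulge identity genes had 27 of 216 weakened (12.5%) and 8 strengthened, and 14.2% away from gene ends, against the 19.0%. Within it Lgr5, a receptor gene and marker of follicle stem cells, had 3 of 13 weakened and 1 strengthened: chr10:115681145-115681873 went from 361 to 25 (ratio 6.81), while chr10:115556323-115557038 had 86 in WT and 116 in dKO (ratio 0.350). Quiescence and BMP or TGF-beta genes had 25 of 168 (14.9%), and 17.3% away from gene ends, with 5 of 16 at Foxp1, which keeps follicle stem cells at rest, and 3 of 6 at Tgfbi, a matrix protein induced by TGF-beta. Basal adhesion and p63 genes had the lowest share of the epithelial lists, 15 of 182 (8.24%), and 8.02% away from gene ends. Hair lineage genes had 14 of 76 (18.4%), and 20% away from gene ends, with 8 strengthened, including 4 of 12 weakened at Vdr, the vitamin D receptor gene. By fold the bulge identity, quiescence and p63 lists stood at 10%, 9.46% and 9.46%, so the bulge identity and p63 lists, under the background by pileup, were just above its 9.06%.

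The remaining epithelial lists were between 11.4% and 15.1%: epidermal barrier genes with 16 of 106, including 4 of 12 at the desmosome gene Dsp, sebaceous genes with 8 of 54, growth factor genes with 19 of 138, Notch and Hedgehog genes with 20 of 151, wound genes with 16 of 134 and upper follicle genes with 4 of 35. Away from gene ends these lists were between 14.2% and 17.9%, all under the 19.0%. By fold the barrier list had 9.09% and the wound list 6.17%. The growth factor list, just above the background by pileup, was under it by fold at 7.76%, and the Notch and Hedgehog list, just under it by pileup, was above it at 13.04%. Lists of other cells had few strong pairs. Melanocyte genes had 5 of 18 weakened (27.8%, and 33.3% away from gene ends), 4 of them at Mitf. Endothelial genes had 4 of 17 (23.5%, and 18.75% away from gene ends, just under the 19.0%). Both strong pairs of Tek, the angiopoietin receptor gene, were weakened, with 231 against 16 and 111 against 28. Fibroblast genes had 1 of 8 and immune genes 0 of 3. By fold the fibroblast and immune lists had 14.3% and 20%. Housekeeping genes had 5 of 16 weakened (31.25%, 14.2 to 55.6), the highest share of all lists, against 13.3% of all pairs with a gene. On few pairs, this was above the 29.3% of the secreted WNT inhibitors and the 26.7% of the bulge region factors. All 5 had midpoints away from gene ends, where 83.3% of 6 pairs were weakened, also the highest share, against the 19.0%. Of these 5 regions 4 were at Actb, with ratios from 1.96 to 2.76. None of the housekeeping pairs was weakened by fold enrichment.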

How the data were processed

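The labels tie 1 deposited peak table to both mice of each genotype. Bowtie2 2.2.9, Picard and MACS2, and the builds mm10 and GRCm38, are named in the submitters' processing notes without role or order. The sources used here do not say how mice were pooled, nor whether duplicates were removed or read ends moved for the transposase. Per the file headers, the deposited signal is the pileup at the summit in whole reads or fragments, and the fold enrichment is the ratio of pileup to local background. The −log10 p and −log10 q columns of the authors have damaged headers and were identified by position, and their lowest −log10 q was 1.30 in both lists.

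Peaks were paired and scaled as the opening of the report states, without mitochondrial peaks, using Python 3.11.15 and pandas 2.3.3. The local background behind a peak was computed as (pileup plus 1) over fold, minus 1. Gene positions and promoter windows came from RefSeq tables of GRCm38.p6, which is the assembly of mm10, and all 487 entries of 22 gene lists matched one of 21900 protein-coding genes. Shares carry Wilson and single ratios exact binomial 95% intervals (statsmodels 0.14.6, scipy 1.17.1), which cover counting error only. Depth is unknown beyond the pileup and background, and transposed reads have no molecular identifiers.

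Named were the 12 regions of highest ratio, the 8 of highest WT pileup, 3 at each side of each threshold, the 12 genes with the most weakened regions (ties by summed log2 ratio), the NFI genes and Sox9, and up to 3 genes per list with weakened and 2 with strengthened regions. Not all of these are described. The regions, lists and rules were chosen with earlier results of these data known. The calling step was tested on pileups simulated at the WT peak positions with counting error only, and the overlap step on a few made-up intervals. Alternatives covered pairing, the measure, centring, thresholds, the q value, gene ends and distances; those for widths, promoters, chromosome X, the 12 genes, lists by fold and lists without gene ends were added after the data were seen.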

Additional observations from a re-analysis of the deposited data

How the results depend on the processing

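Over 15 settings, 232 values were recomputed; 176 moved by no more than their counting interval (counts by no more than 1.5 times) and 56 moved further. The number of weakened regions was 2947 with fold enrichment, 6813 at a ratio of 1.5 and 2740 at a WT pileup of 2 medians. The share at gene ends was 3.46% at a ratio of 2 and 7.41% with gene ends of 2 kb, and that inside and between genes 44.96% and 51.6% at a ratio of 2 and 44.5% and 51.0% at 2 medians. Weakened neighbours made up 10.4% with fold enrichment, 24.6% at a ratio of 2, 32.2% at 2 medians and 20.7% within 50 kb. With fold enrichment the WT-only share of single-list neighbours was 62.8%, and 1.83% of regions overlapped more than 1 dKO peak. The share on chromosome X was 6.47% at a ratio of 2 and 7.25% at 2 medians. Apart from stricter or looser thresholds, which change the regions counted, the cause was not tested. Pairing by 50% overlap kept 99.4% of the weakened regions, summits within 200 bp 89.3%, single pairs 96.2%, centring within 20 strength bins 90.9%, a q value of 1e-05 90.1% and fold enrichment 31.2%. Of 22 lists, 15 stood above all pairs by the share alone, many with an interval that held the background. With fold enrichment 15 did too, but 10 lists changed side: the NFI, WNT, planar polarity, growth factor and housekeeping lists went under, and the bulge identity, p63, Notch and Hedgehog, fibroblast and immune lists above. With strength bins and at a ratio of 2 there were 16 each (3 changed side in each), with genes within 20 kb 12 (5 changed side) and without pairs at gene ends 8 (7 changed side). No paired analysis was possible because the deposited data hold 1 list per genotype, and for the same reason no mouse could be left out. Low dKO pileups limit precision: at 9 reads the ratio interval of the Igf2 region ran from 7.76 to 33.0.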
